A study of Arabidopsis thaliana with 6 samples.

Results

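The transcripts described here are those of 10 genes that regulate the response of Arabidopsis thaliana to iron shortage: the transcription factor genes BHLH38 (AT3G56970), BHLH39 (AT3G56980), BHLH100 (AT2G41240) and BHLH101 (AT5G04150), the peptide genes IMA1 (AT1G47400), IMA2 (AT1G47395) and IMA3 (AT2G30766), and PYE (AT3G47640), BTS (AT3G18290) and OPT3 (AT4G16370). They were found by their gene identifiers, and all 10 were in the table of read counts, which holds 32678 genes. All 10 also passed the filter on low counts that left 18380 genes to test. Wild-type plants, raised for 7 days on plates of MS (a mineral culture medium), were kept for 12 h with 0 µM (control), 100 µM or 1000 µM melatonin, an indoleamine made from tryptophan. Rosette leaves were then taken for RNA sequencing, with 2 libraries in each of the 3 groups. The series is titled for an effect of melatonin on root growth, while the RNA is labelled as leaf. Whether paired libraries of a dose stem from different plants is not stated, so the p-values reflect a library-to-library spread that may be technical.

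Iron is scarce in soluble form, and plants answer a shortage by raising a chain of regulators. Factors of the bHLH subgroup IVc and BHLH121 act at the top, and they raise the genes of the bHLH subgroup Ib (BHLH38, BHLH39, BHLH100 and BHLH101), whose products pair with the factor FIT in roots to turn on iron uptake. The IMA genes encode short, aspartate-rich peptides that promote the response. PYE is a bHLH factor that represses genes of iron transport and storage, BTS is an iron-binding ubiquitin ligase that limits the response by targeting subgroup IVc factors, and OPT3 is a transporter that loads iron into the phloem of the shoot. The 10 genes are known to be raised by iron shortage.

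Libraries held 6410046 to 7723602 counts. Levels are CPM, read counts divided by the TMM-scaled library size and given per 1e+06, and both libraries of a group are printed, replicate 1 first. Changes come from edgeR's quasi-likelihood test fitted to all 6 libraries, with ± for the SE, and p was adjusted by Benjamini-Hochberg over the 18380 genes. A gene is said to rise, fall or pass where adjusted p was below 0.05. The libraries held RNA of leaves: RBCS1A, the small subunit of Rubisco and the most abundant of 7 mesophyll markers, stood at 10586 to 11649 CPM in the control and 100 µM libraries and at 8498 and 7398 CPM at 1000 µM. They also held transcripts known from roots. Among 14 root markers, 10 exceeded 3 counts in every library and 0 were without a count throughout, and PYK10, a root and hypocotyl beta-glucosidase, was the most abundant (3177 and 3315 CPM in the controls). In bulk tissue, fewer cells of a type and less RNA per cell cannot be told apart.

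The coding sequences of the IMA genes are shown because IMA1 and IMA2 are so alike that reads might be shared between them. Sequences and positions are from the RefSeq assembly TAIR10.1 and its own annotation. IMA2 (chr1:17383117-17383269, coding part on the plus strand) and IMA1 (chr1:17385818-17385970, plus strand) are on chromosome 1. Their annotated genes, which reach beyond these coding parts, lie 1876 bases apart. IMA3 (chr2:13108068-13108211, plus strand) is on chromosome 2. Each coding sequence lies within 1 exon. Capitals mark the bases at which IMA1 and IMA2 differ.
IMA1: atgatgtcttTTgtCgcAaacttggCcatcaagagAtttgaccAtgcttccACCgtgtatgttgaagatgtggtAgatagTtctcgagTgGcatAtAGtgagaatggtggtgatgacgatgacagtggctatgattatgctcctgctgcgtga
IMA2: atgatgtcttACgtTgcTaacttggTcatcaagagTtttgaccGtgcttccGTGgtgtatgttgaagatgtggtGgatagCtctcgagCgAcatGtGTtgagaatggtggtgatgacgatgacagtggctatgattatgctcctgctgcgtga
IMA3: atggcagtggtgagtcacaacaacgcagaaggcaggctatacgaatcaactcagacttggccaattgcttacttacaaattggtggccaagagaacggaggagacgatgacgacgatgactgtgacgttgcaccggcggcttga

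IMA1 and IMA2 were identical at 136 of 153 coding bases (88.9%), and their 17 differences all lay before a shared end of 55 bases that codes for the aspartate-rich tail. Over whole exons they were easier to tell apart. Of 730 windows of 50 bases in the exon of IMA1, 10 (1.37%) occurred a second time in the genome, all of them in IMA2. For the 8 other regulators 0 such windows recurred. IMA3 shared no run of more than 9 coding bases with IMA1, and over the last 60 bases of the coding sequence it matched 37 of them.

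The 250 bases before the annotated start of each gene are shown for the subgroup Ib genes and for BTS, since bHLH proteins bind the E-box, CANNTG, and often its form CACGTG, the G-box. The stretches are chr3:21085246-21085495 (minus strand) for BHLH38, chr3:21087711-21087960 (minus) for BHLH39, chr2:17199455-17199704 (minus) for BHLH100, chr5:1139634-1139883 (minus) for BHLH101 and chr3:6273716-6273965 (plus) for BTS. BHLH38 and BHLH39 are neighbours on chromosome 3, 1144 bases apart and on the same strand. Capitals mark E-boxes, G-boxes included.
BHLH38: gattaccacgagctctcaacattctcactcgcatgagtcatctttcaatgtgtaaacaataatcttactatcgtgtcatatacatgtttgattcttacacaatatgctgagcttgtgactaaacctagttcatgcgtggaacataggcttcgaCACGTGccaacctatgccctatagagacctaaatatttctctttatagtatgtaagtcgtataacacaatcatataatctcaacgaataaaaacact
BHLH39: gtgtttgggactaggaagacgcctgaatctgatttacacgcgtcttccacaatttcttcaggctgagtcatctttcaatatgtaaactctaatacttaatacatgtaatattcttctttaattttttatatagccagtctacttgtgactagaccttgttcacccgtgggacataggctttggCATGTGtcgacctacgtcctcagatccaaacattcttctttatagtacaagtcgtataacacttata
BHLH100: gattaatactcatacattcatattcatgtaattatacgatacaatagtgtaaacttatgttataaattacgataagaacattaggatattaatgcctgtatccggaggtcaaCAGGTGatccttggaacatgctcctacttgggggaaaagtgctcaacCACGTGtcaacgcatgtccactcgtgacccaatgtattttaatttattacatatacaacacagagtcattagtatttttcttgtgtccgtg
BHLH101: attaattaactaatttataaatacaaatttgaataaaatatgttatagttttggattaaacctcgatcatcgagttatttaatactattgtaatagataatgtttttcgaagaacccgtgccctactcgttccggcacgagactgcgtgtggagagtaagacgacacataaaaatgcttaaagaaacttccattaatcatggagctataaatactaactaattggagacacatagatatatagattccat
BTS: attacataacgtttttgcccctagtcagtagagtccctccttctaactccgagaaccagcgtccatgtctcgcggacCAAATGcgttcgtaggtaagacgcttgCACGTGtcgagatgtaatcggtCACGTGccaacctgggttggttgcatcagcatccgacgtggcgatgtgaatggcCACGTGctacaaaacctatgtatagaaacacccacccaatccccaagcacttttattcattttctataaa

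A G-box stood before 4 of the 10 genes, BHLH38, BHLH100, BTS and OPT3, and before 1780 of 27437 protein-coding genes of the nuclear genome (6.49%). Both motifs read the same on either strand, and every G-box is also counted as an E-box. An E-box stood before 8 of the 10 and before 55.3% of all genes, and 6 of the 10 had 2 or more, against 20.3% of all. BTS had 3 G-boxes and a further E-box, OPT3 1 G-box and 2 further E-boxes. In BHLH38 the G-box lay 97 to 92 bases before the start, and in BHLH39 the E-box CATGTG lay 67 to 62 bases before it. IMA1 and IMA2 both held CATGTG and CACTTG, at 232 and 60 bases before the start in IMA1 and at 200 and 27 in IMA2. BHLH101 and PYE had no E-box in these windows. These matches describe letters in a window, and binding was not measured.

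**Figure D1:**
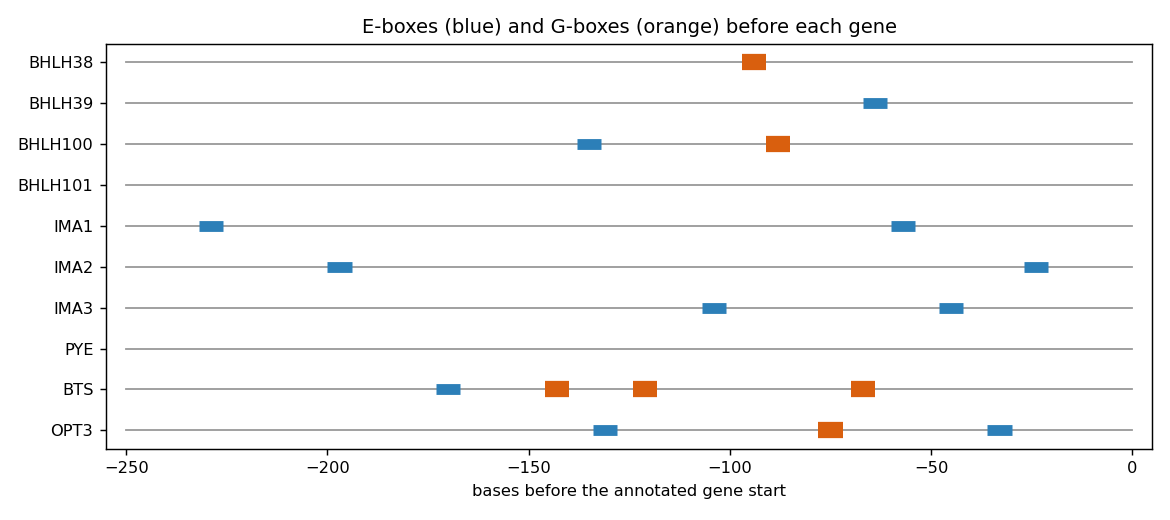
E-boxes (blue) and G-boxes (orange) in the 250 bases before the annotated start of the 10 genes; the horizontal axis is the distance to the start in bases. BTS holds 3 G-boxes, BHLH38, BHLH100 and OPT3 hold 1 each, and BHLH101 and PYE hold neither motif.

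The 4 subgroup Ib genes and IMA1 and IMA2 rose at both melatonin doses, by 1.51-fold to 2.30-fold at 100 µM and by 1.68-fold to 3.66-fold at 1000 µM. IMA3, PYE and BTS did not pass the test at either dose, and OPT3 passed at 1000 µM only, with a 1.295-fold rise. At 100 µM 6 of the 10 genes rose, where 1.79% of all tested genes rose (3.32% changed), and at 1000 µM 7 of 10 rose, where 15.2% did (29.6% changed). The median log2 change of the 10 was 0.63 and 0.82 at the lower and the higher dose, and that of all tested genes was -0.01 at both. None of the 10 fell at either dose in edgeR, where 1.53% and 14.5% of all tested genes fell (0 of the 10 lower at an unadjusted p under 0.05, and 0 in DESeq2). Both comparisons use the same 2 control libraries, so they are not independent of each other. The 10 genes were chosen with earlier results of these data known, so their counts beside all tested genes are a description only.

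**Figure D2:**
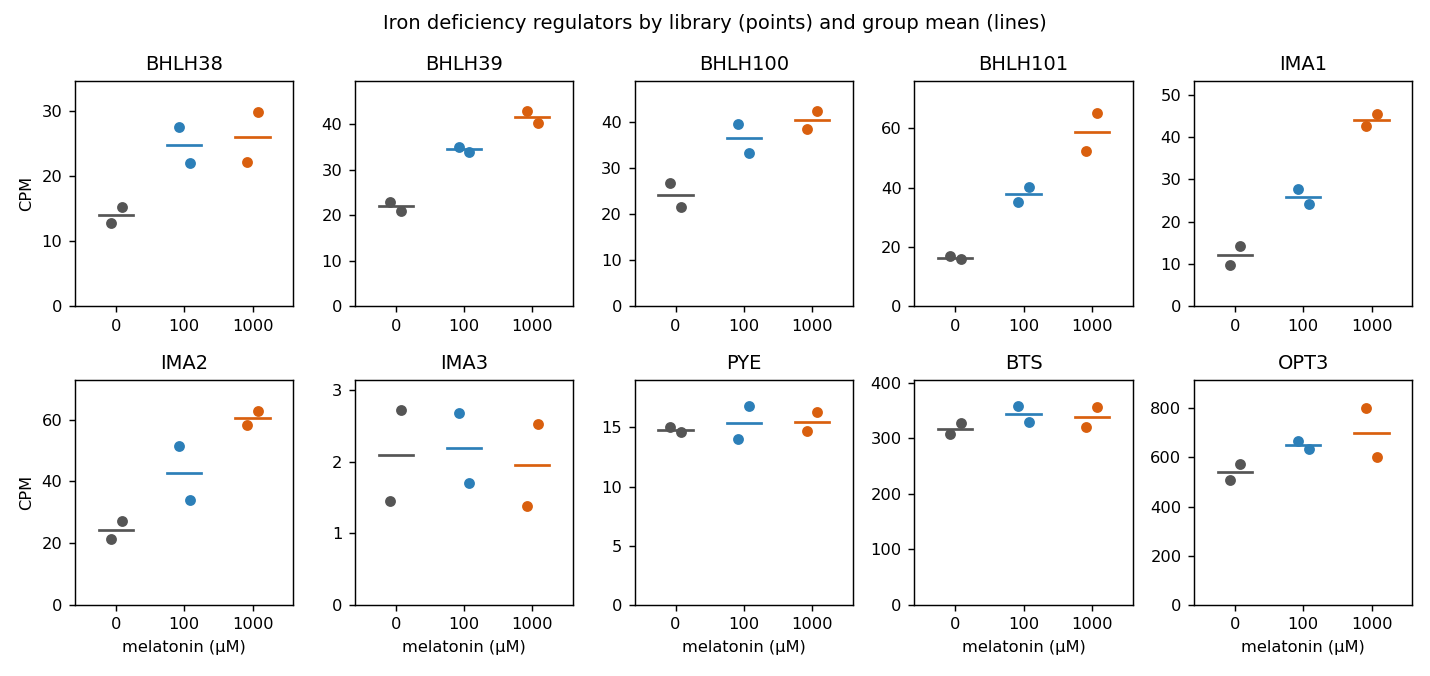
CPM of the 10 genes in each library (points) and the group mean (lines) at 0, 100 and 1000 µM melatonin; each panel starts at 0 CPM and has its own scale. In BHLH38, BHLH39, BHLH100, BHLH101, IMA1 and IMA2 all 4 treated libraries lie above both controls, whereas IMA3 and PYE overlap between groups.

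Of the subgroup Ib genes, BHLH101 moved most. Its level was 16.9 and 15.9 CPM in the controls, 35.05 and 40.4 CPM at 100 µM and 52.5 and 65.1 CPM at 1000 µM. The 3 groups did not overlap, and each dose lay above the one before. The group means ± SD (n = 2) were 16.4 ± 0.728, 37.7 ± 3.78 and 58.8 ± 8.93 CPM. The log2 change was 1.20 ± 0.15 (SE) at 100 µM (adjusted p = 8.83e-05) and 1.85 ± 0.14 at 1000 µM (adjusted p = 2.16e-08). The difference between the doses was itself called, at 0.64 ± 0.13 on the log2 scale (adjusted p = 0.00171). Without 100 µM replicate 1, the library with the lower level of its pair, this difference was 0.55 (adjusted p = 0.0661).

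BHLH39 was counted at 23.0 and 20.9 CPM without melatonin, 35.05 and 34.0 CPM at 100 µM, and 42.9 and 40.3 CPM at 1000 µM. The 3 groups did not overlap here either. Its log2 change was 0.65 ± 0.12 at 100 µM (adjusted p = 0.00700) and 0.92 ± 0.12 at 1000 µM (adjusted p = 1.71e-05). The step of 0.27 from the lower to the higher dose did not pass (adjusted p = 0.131, 95% interval 0.03 to 0.51).

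BHLH38, its neighbour, stood at 12.8 and 15.3 CPM in the controls, at 27.6 and 22.1 CPM at 100 µM and at 22.15 and 30.0 CPM at 1000 µM. All treated libraries were above both controls, but the doses overlapped. The log2 change was 0.82 ± 0.18 at 100 µM (adjusted p = 0.0156) and 0.89 ± 0.17 at 1000 µM (adjusted p = 0.000886), and the step between the doses was 0.07 (adjusted p = 0.820, 95% interval -0.27 to 0.42). Of the exon bases of BHLH38, 386 of 1082 (35.7%) are also exon of PIP5K4 on the other strand, and the strand setting of the counting is not given in the sources used here. PIP5K4 stood at 6.42 to 9.69 CPM in the 6 libraries, and neither its change at 100 µM (log2 0.28, adjusted p = 0.620) nor that at 1000 µM (-0.01, 0.975) passed.

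BHLH100 stood at 26.8 and 21.45 CPM in the controls, 39.5 and 33.2 CPM at 100 µM and 38.5 and 42.35 CPM at 1000 µM. Treated libraries again lay above both controls, and the doses overlapped. Its log2 change was 0.60 ± 0.14 at 100 µM (adjusted p = 0.0237) and 0.75 ± 0.14 at 1000 µM (adjusted p = 0.000455), with a step of 0.15 between the doses (adjusted p = 0.486, 95% interval -0.12 to 0.43). For BHLH101, 79 of 1083 exon bases (7.295%) are also exon of GLU1 on the other strand, a ferredoxin-dependent glutamate synthase at 1442 to 1958 CPM, with a log2 change at 1000 µM of -0.39 (0.00495 as adjusted p).

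With 1 library left out, the calls of the subgroup Ib genes were lost more often at 100 µM than at 1000 µM. The fit shares 1 estimate of spread per gene over the 3 groups. Replicates differed most at 1000 µM, with a chi-square per degree of freedom of 5.58, against 1.94 in control and 1.84 at 100 µM. The lost calls therefore do not show that the 1000 µM libraries are the steadier ones. With only the groups compared, 7 of the 10 regulators were called at 100 µM and 6 at 1000 µM. Of the 18380 tested genes, those fits called 1719 and 4547, against 610 and 5442 with all 6 libraries fitted. BHLH101 passed at 100 µM without any one of the 6 libraries (log2 change 1.10 to 1.30). BHLH38 lost its call without control replicate 1 (log2 change 0.70, adjusted p = 0.188), control replicate 2 (0.96, 0.0583), 100 µM replicate 1 (0.65, 0.306) or 100 µM replicate 2 (0.97, 0.0787). BHLH39 lost it without control replicate 2 (0.59, 0.123) or 100 µM replicate 1 or 2 (0.63 and 0.68, 0.122 and 0.101). BHLH100 lost it without control replicate 2 (0.44, 0.341) or 100 µM replicate 1 or 2 (0.47 and 0.71, 0.353 and 0.107), and had an adjusted p of 0.0834 in DESeq2. At 1000 µM the 4 genes passed without any one of the 6 libraries, with adjusted p of at most 0.0197.

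The make-up of the subgroup Ib counts shifted with dose, as a description with no test. Of the counts of the 4 genes, BHLH101 supplied 21.25% and 21.6% without melatonin, 25.5% and 31.1% with 100 µM, and 33.6% and 36.6% with 1000 µM (95% Wilson interval 30.9% to 36.4% and 34.15% to 39.2% in the last pair, which covers counting error only). BHLH100 had the largest share in the controls, 33.7% and 29.2%, beside 28.9% and 28.4% for BHLH39. The Wilson intervals of these genes overlapped in both controls. At 1000 µM BHLH100 supplied 24.7% and 23.8%. Summed over the 4 genes, the level was 79.5 and 73.5 CPM in the controls, 137 and 130 CPM at 100 µM and 156 and 178 CPM at 1000 µM.

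**Figure D3:**
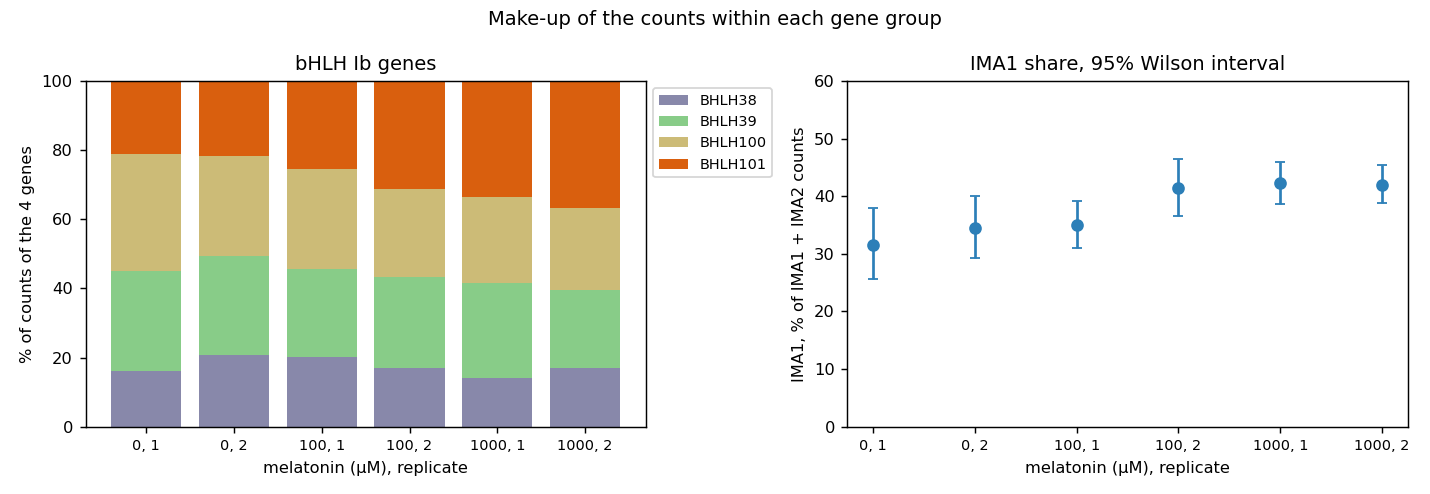
Left, share of each subgroup Ib gene in the summed counts of the 4 genes, by melatonin dose (µM) and replicate; right, IMA1 as a share of IMA1 and IMA2 counts with its 95% Wilson interval. BHLH101 goes from 21.25% and 21.6% in the controls to 33.6% and 36.6% at 1000 µM, and IMA1 from 31.5% and 34.4% to 42.25% and 42.01%.

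Among the peptide genes, IMA1 stood at 9.75 and 14.2 CPM in the controls, 27.7 and 24.1 CPM at 100 µM and 42.65 and 45.5 CPM at 1000 µM. The 3 groups were apart, in the order of the dose, with means ± SD (n = 2) of 11.98 ± 3.16, 25.9 ± 2.59 and 44.1 ± 2.02 CPM. Its log2 change was 1.11 ± 0.17 at 100 µM (adjusted p = 0.00101) and 1.87 ± 0.16 at 1000 µM (adjusted p = 8.14e-08), and the step between the doses was 0.77 ± 0.14 (adjusted p = 0.00114). IMA1 lost its call at 100 µM without 100 µM replicate 1 (log2 change 1.0, adjusted p = 0.0629), and the step missed the threshold without 100 µM replicate 2 (0.67, 0.0513).

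IMA2 stood at 21.25 and 27.1 CPM in the controls, 51.6 and 34.0 CPM at 100 µM and 58.3 and 62.8 CPM at 1000 µM. The groups did not overlap, although the 100 µM libraries were far apart. The log2 change was 0.82 ± 0.17 at 100 µM (adjusted p = 0.0108) and 1.32 ± 0.16 at 1000 µM (adjusted p = 7.89e-06), with a step of 0.50 ± 0.15 (adjusted p = 0.0335, and 0.0979 in DESeq2). The call at 100 µM ended without control replicate 1 (log2 change 0.66, adjusted p = 0.167) or 100 µM replicate 1 (0.49, 0.318), and that of the step without 100 µM replicate 2 (0.23, 0.439). IMA1 made up 31.5% and 34.4% of the counts of the pair without melatonin, 35.0% and 41.4% at 100 µM and 42.25% and 42.01% at 1000 µM. At 1000 µM IMA1 and IMA2 passed without any one of the 6 libraries.

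IMA3 was scarce, with 10 and 20 counts in control, 18 and 11 in 100 µM and again 10 and 20 in 1000 µM libraries, or 1.38 to 2.73 CPM in all. The groups overlapped fully. Its log2 change was 0.06 ± 0.46 at 100 µM and -0.09 ± 0.46 at 1000 µM (adjusted p = 0.967 and 0.902), and the 95% intervals, -0.91 to 1.04 and -1.06 to 0.87, bound it. At 100 µM the interval of IMA3 holds the log2 change of IMA2 (0.82), so a rise of that size is not excluded. It ends below the log2 change of IMA1 (1.11) but overlaps the interval of IMA1 (0.75 to 1.46). A difference between IMA3 and IMA1 was not tested. At 1000 µM the interval of IMA3 ends below the log2 changes of IMA2 and IMA1 (1.32 and 1.87). IMA3 also shares 330 of its 1995 exon bases with CYP71A13 and 78 with AT2G30760, both on the other strand and both at or below 2.62 CPM.

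**Figure D4:**
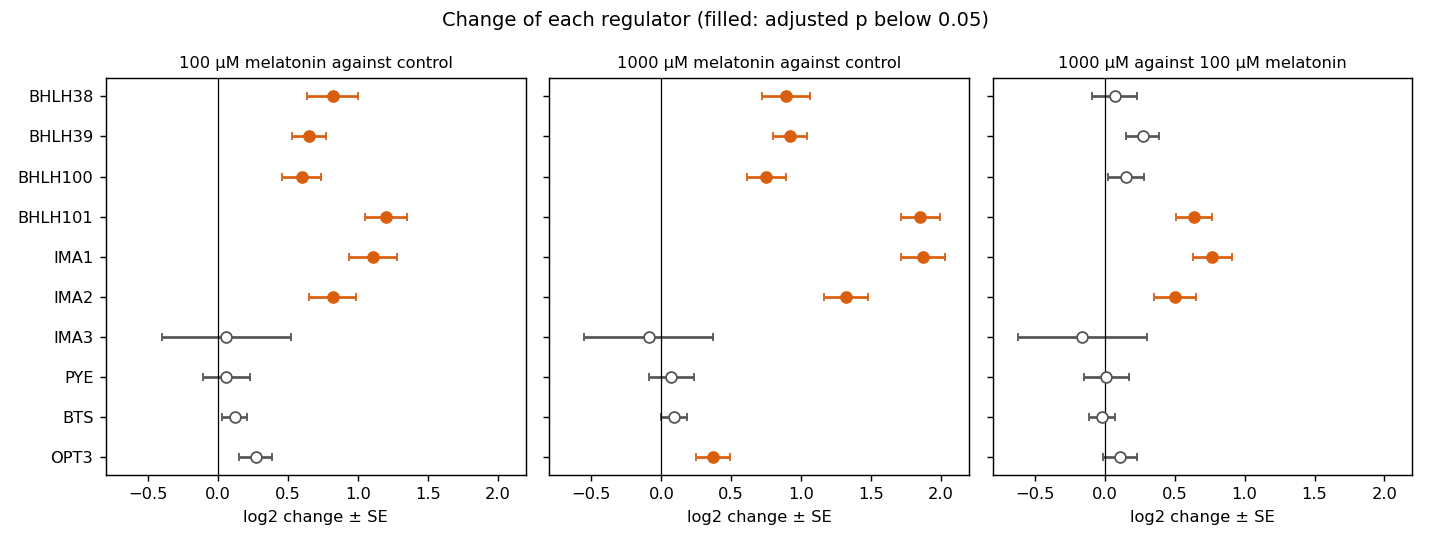
Log2 change ± SE of the 10 genes in the 3 comparisons, from edgeR's quasi-likelihood fit of all 6 libraries; filled points have an adjusted p below 0.05. BHLH101, IMA1 and IMA2 are filled in all 3 panels, and IMA3, PYE and BTS in none.

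The repressor PYE and the ubiquitin ligase BTS did not pass in any of the 3 comparisons. PYE stood at 15.0 and 14.6 CPM in the controls, 14.0 and 16.8 CPM at 100 µM and 14.7 and 16.3 CPM at 1000 µM. Its groups overlapped at each dose, and the log2 change was 0.06 ± 0.17, then 0.07 ± 0.16 (adjusted p = 0.917 and 0.789, 95% intervals -0.29 to 0.40 and -0.27 to 0.41). BTS stood at 307.5 and 327 CPM, 358 and 330 CPM, and 321 and 356 CPM in the same order. The 100 µM libraries were just above both controls and the 1000 µM libraries were not. The log2 change of BTS was 0.12 ± 0.09 at 100 µM (adjusted p = 0.620, 95% interval -0.08 to 0.32) and 0.09 ± 0.09 at 1000 µM (adjusted p = 0.498, -0.11 to 0.29). The intervals of BTS and PYE end below the log2 change of each subgroup Ib gene and of IMA1 and IMA2 at the same dose. Those changes were 0.60 or more at 100 µM and 0.75 or more at 1000 µM. They have errors of their own, and no difference between genes was tested. At 100 µM the interval of BHLH100 (0.30 to 0.89) overlaps those of BTS and PYE, and that of BHLH39 (0.39 to 0.92) overlaps that of PYE.

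OPT3, the most abundant of the 10, stood at 508 and 574 CPM in the controls, 665 and 636 CPM at 100 µM and 800 and 601.5 CPM at 1000 µM. All treated libraries were above both controls, and the 1000 µM libraries lay on either side of those at 100 µM. The log2 change was 0.27 ± 0.12 at 100 µM (adjusted p = 0.290) and 0.37 ± 0.12 at 1000 µM (adjusted p = 0.0242). Of the 6 fits that left out 1 library, the latter call was kept in 1, that without 1000 µM replicate 2, the lower of its pair (log2 change 0.57). Without control replicate 1 or 2, 100 µM replicate 1 or 2, or 1000 µM replicate 1 the log2 change was 0.29, 0.46, 0.38, 0.37 and 0.16, with adjusted p of 0.258, 0.0614, 0.0657, 0.0653 and 0.111. When only the control and 100 µM libraries were fitted, OPT3 passed at 100 µM with a log2 change of 0.26 (adjusted p = 0.00353), and when only the control and 1000 µM libraries were fitted it did not pass at 1000 µM (0.38, 0.0663).

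Between the doses 3 of the 10 genes rose, BHLH101, IMA1 and IMA2, where 8.65% of all tested genes rose (16% changed). None of the 10 fell in edgeR, where 7.3% of all did (0 at an unadjusted p under 0.05, 0 in DESeq2). In 4 of the 10, the same 3 and BHLH39, both 1000 µM libraries lay above both 100 µM libraries, as they did in 27.5% of all tested genes. In 8 of the 10 both 100 µM libraries lay above both controls, against 25.4% of all, and in 7 of the 10 both 1000 µM libraries did, against 31.5%.

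Per length of exon, the order of the genes changed with dose. On the scale of CPM per kilobase, OPT3 stood first (200.5 in the controls), BTS after it (70.6), IMA2 next (29.0) and IMA3 last (1.05). Between IMA2 and BHLH38, the controls held BHLH100, BHLH39, IMA1 and BHLH101, at 20.8, 18.1, 15.4 and 15.1, each overlapping the next. At 1000 µM IMA2 (72.7) overlapped BTS (75.3), and IMA1 (56.6) and BHLH101 (54.3), which overlapped each other, stood above BHLH100 (34.9) and BHLH39 (34.3). PYE kept the place above IMA3 in all 3 groups (10.7, 11.1 and 11.2). The exon lengths are those of RefSeq's models, and that of IMA3 (1995 bases) covers more than its coding sequence of 144 bases by far. The lengths of BHLH38, BHLH101 and IMA3 include bases shared with genes on the other strand, for BHLH38 386 of 1082. How reads there were counted is not given in the sources used here.

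Of 6 genes for factors that act above or beside the subgroup Ib genes, 5 were tested. At 100 µM 0 changed in edgeR (0 in DESeq2), and 3.32% of all tested genes did. At an unadjusted p under 0.05, 1 of the 5 was lower at 100 µM. At 1000 µM 1 rose and 1 fell, beside 15.2% and 14.5% of all genes. The median log2 change was 0.18 at 100 µM and 0.10 at 1000 µM. ILR3, a subgroup IVc factor, rose from 99.0 and 110 CPM to 160 and 128 CPM at 1000 µM (log2 change 0.46 ± 0.11, adjusted p = 0.00433, and 0.0819 without control replicate 1). BHLH121, which is known to activate subgroup Ib genes, fell from 55.2 and 55.1 CPM to 30.7 and 48.2 CPM (log2 change -0.48 ± 0.15, adjusted p = 0.0230). Of the 6 fits that left out 1 library, that call was kept in 1, that without 1000 µM replicate 2 (-0.84), and the log2 change was -0.19 without 1000 µM replicate 1 (adjusted p = 0.226). At 1000 µM the adjusted p was 0.0736 in DESeq2 and 0.0551 with only the groups compared. At 100 µM BHLH121 stood at 42.95 and 43.2 CPM, below both controls, with a log2 change of -0.36 (adjusted p = 0.259). When only the control and 100 µM libraries were fitted, BHLH121 passed at 100 µM (log2 change -0.36, adjusted p = 0.0142). BHLH115 had a log2 change of 0.22 (adjusted p = 0.119).

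Of 16 genes of the FIT branch of root iron uptake 11 were tested, of which 1 fell at 100 µM and 2 rose and 3 fell at 1000 µM (median log2 change -0.24 and -0.11). Over all tested genes 1.53% fell at 100 µM, and 15.2% rose and 14.5% fell at 1000 µM. AT3G13610, which encodes F6'H1, an enzyme of coumarin synthesis, fell from 16.4 and 20.2 CPM to 7.76 and 8.54 CPM at 100 µM (log2 change -1.17 ± 0.21, adjusted p = 0.00397) and to 3.19 and 1.90 CPM at 1000 µM (-2.86 ± 0.25, adjusted p = 1.29e-07). The call at 100 µM ended without control replicate 2 (-1.01, 0.0942) or 100 µM replicate 1 or 2 (-1.10 and -1.24, 0.114 and 0.0824). Its groups did not overlap, in the order opposite to that of BHLH101. IRT1, the iron transporter of the root surface, stood at 10.9 and 8.20 CPM in the controls and 19.9 and 17.3 CPM at 1000 µM, and its log2 value rose by 0.96 ± 0.27 (adjusted p = 0.0119, 0.116 without control replicate 2 and 0.231 in DESeq2). At 100 µM its libraries were at 15.4 and 6.06 CPM and its log2 change was 0.18 (adjusted p = 0.843).

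FRO2, the ferric chelate reductase that works with IRT1, went from 12 and 22 counts (control) to 7 and 3 (1000 µM) (log2 change -1.82 ± 0.60, adjusted p = 0.0285, 0.230 without control replicate 2, 0.134 without 1000 µM replicate 2 and 0.107 in DESeq2). FIT itself went from 20 and 26 counts to 14 and 10 at 1000 µM, and its log2 change of -1.02 ± 0.39 did not pass (adjusted p = 0.0601). At 100 µM the log2 changes of FRO2 and FIT were -0.27 and -0.05 (adjusted p = 0.856 and 0.963). ABCG37, a plasma membrane exporter that carries coumarins, rose from 63.9 and 59.6 CPM to 112.3 and 112.1 CPM at 1000 µM (log2 change 0.86 ± 0.10, adjusted p = 2.64e-06). FPN2, a transporter of the vacuole membrane, fell (log2 change -1.64 ± 0.44, adjusted p = 0.00893) from 21 and 29 counts to 5 and 12, and its adjusted p was 0.0818 without control replicate 2, 0.0714 without 1000 µM replicate 1 and 0.0622 in DESeq2.

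Of the root markers, 7 of 13 tested fell at 1000 µM in edgeR (5 in DESeq2), where 14.5% of all tested genes fell, and 6 did not pass. Summed over the 14, they stood at 3530 and 3606 CPM in the controls, 3330 and 3380 CPM at 100 µM and 2238 and 2286 CPM at 1000 µM. Most of this sum was PYK10, and without it the sum was 353 and 291 CPM, then 269.6 and 263 CPM, then 231 and 235.5 CPM. PYK10 stood at 2006 and 2051 CPM at 1000 µM (log2 change -0.68 ± 0.10, adjusted p = 4.54e-05). Of the 7 mesophyll markers 5 fell at 1000 µM, beside the same 14.5% of all genes, and their sum went from 25626 and 27303 CPM in the controls to 18538 and 16298 CPM. The part of root and mesophyll RNA in the changes of the iron genes was not tested.

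**Figure D5:**
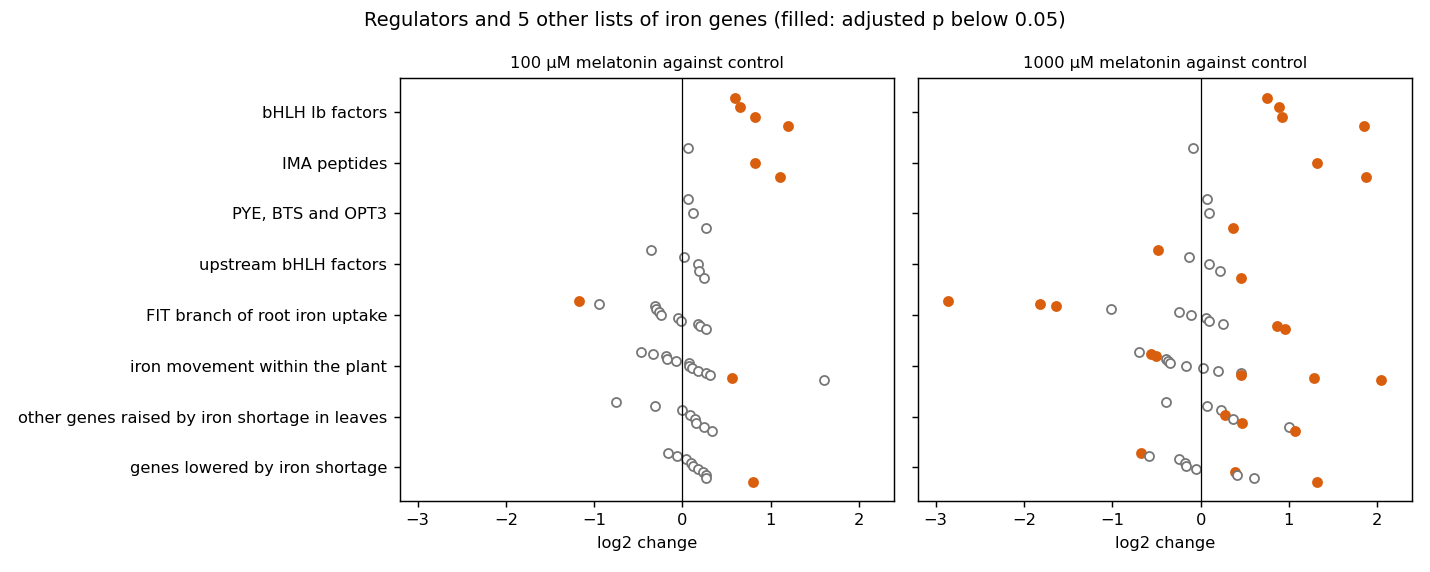
Log2 change of every tested gene of the 10 regulators (upper 3 rows) and of 5 other lists of iron genes at 100 µM and at 1000 µM melatonin; filled points have an adjusted p below 0.05. The subgroup Ib row is filled and right of 0 in both panels, while the FIT branch reaches from -2.86 to 0.96 at 1000 µM.

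Of 14 genes that move iron within the plant 13 were tested, with 1 rise at 100 µM and 3 rises and 2 falls at 1000 µM. Their median log2 change was 0.08 and -0.16. Of all tested genes 1.79% rose at 100 µM, and 15.2% rose and 14.5% fell at 1000 µM. NRAMP3, which releases iron from the vacuole, rose from 19.7 and 17.2 CPM to 27.4 and 26.9 CPM at 100 µM (log2 change 0.56 ± 0.14, adjusted p = 0.0346) and to 48.2 and 41.3 CPM at 1000 µM (1.28 ± 0.13, adjusted p = 9.97e-07). The call at 100 µM ended without any one of the 4 libraries compared (log2 change 0.47 to 0.66, adjusted p up to 0.342), and in DESeq2 (adjusted p = 0.153). NRAMP4, its close relative, had a log2 change of 0.46 at 1000 µM (adjusted p = 0.00132), and NRAMP1, a metal uptake transporter, one of -0.56 (adjusted p = 0.000604).

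The leaf genes listed as raised by iron shortage rose in part at the higher dose, and the ferritin gene FER1 rose too. Of the 8 leaf genes 0 changed at 100 µM in edgeR (0 in DESeq2), and 3.32% of all tested genes did. At an unadjusted p under 0.05, 1 of the 8 was higher at 100 µM. At 1000 µM 3 rose (2 in DESeq2, median log2 change 0.33), where 15.2% of all genes rose. They were AT3G07720, AT5G05250 and AT3G56360, whose log2 values rose by 1.07, 0.47 and 0.28 (adjusted p = 3.97e-05, 0.00105 and 0.0470). With 1 library left out, AT3G56360 passed only without 1000 µM replicate 2, and it did not pass in DESeq2 (adjusted p = 0.0582). Of 11 genes listed as lowered by iron shortage 10 were tested, with 1 rise at 100 µM and 2 rises and 1 fall at 1000 µM. Their median log2 change was 0.15 and -0.10. Of all tested genes 1.79% rose at 100 µM. The counts at 1000 µM were close to the 15.2% and 14.5% of all genes. FER1, which stores iron and is known to be held down when iron is short, stood at 35.5 and 31.0 CPM in the controls, 55.8 and 59.96 CPM at 100 µM and 85.6 and 80.2 CPM at 1000 µM. Its 3 groups did not overlap, in the same order as those of BHLH101. The log2 change of FER1 was 0.80 ± 0.11 (adjusted p = 0.000557) and 1.32 ± 0.11 (adjusted p = 8.60e-08), and it passed at both doses without any one of the 6 libraries. The ferritin genes FER3 and FER4 of the same list did not pass at either dose. Their log2 changes were 0.12 and 0.27 at 100 µM (adjusted p = 0.661 and 0.556) and -0.18 and -0.16 at 1000 µM (0.230 and 0.576). The chloroplast ascorbate peroxidase genes SAPX and TAPX went opposite ways at 1000 µM. SAPX changed by 0.39 (log2, adjusted p = 0.0135) and TAPX by -0.67 (4.16e-05). The call of SAPX ended without control replicate 1 or 2 (adjusted p = 0.0774 and 0.106) and in DESeq2 (0.0734).

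OPT3 and the IMA genes are known from the phloem, so 5 phloem markers were read beside them. SUC2, the sucrose loader of companion cells, rose from 181 and 189 CPM to 375 and 406 CPM at 100 µM (log2 change 1.08 ± 0.10, adjusted p = 9.01e-06) and to 727 and 612 CPM at 1000 µM (1.85 ± 0.10, adjusted p = 5.43e-10). Summed without SUC2, the other 4 markers stood at 286.5 and 264 CPM in the controls, 259 and 270.0 CPM at 100 µM and 268 and 269 CPM at 1000 µM, and the groups overlapped. Of the 5, 1 rose at 100 µM and 2 rose at 1000 µM (1 at each dose in DESeq2), beside 1.79% and 15.2% of all tested genes. The part of phloem RNA in the changes of the regulators was not tested.

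The genes most like the subgroup Ib genes in pattern were sought by the root-mean-square difference between centred log2 CPM profiles over the 6 libraries, among 17217 genes with a mean of at least 2 CPM. The nearest 5 to the mean of BHLH38, BHLH39, BHLH100 and BHLH101 were AT1G64370 (a filaggrin-like protein, difference 0.0322 on the log2 scale), BIR6 (AT3G48250, a pentatricopeptide repeat protein, 0.0831), HYH (AT3G17609, a homologue of the light-signalling factor HY5, 0.112), AT3G53810 (a lectin receptor kinase, 0.114) and AT3G03320 (an RNA-binding ASCH domain protein, 0.116). The 4 genes themselves lay 0.116 (BHLH39), 0.164 (BHLH100), 0.167 (BHLH38) and 0.314 (BHLH101) from their own mean, IMA2 0.221 and IMA1 0.372. Of the 17217 genes, 1220 lay nearer to this mean than BHLH101 did. AT1G64370 stood at 169 and 164 CPM in the controls, 294 and 286.5 CPM at 100 µM and 314 and 373 CPM at 1000 µM.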

How the data were processed

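RNA of 6 libraries was read as a table of counts per gene. The deposited counts were made by the authors with TopHat2 2.0.12, Bowtie2 2.2.3 and HTSeq 0.6.1 against TAIR10, and DESeq 1.18.0 is also named, per the submitters' processing notes; whether counting used strand, which decides how opposite-strand overlaps are counted, is not given in the sources used here. Here, counts were fitted with edgeR 4.0.16 in R 4.3.3 on all 6 libraries, after filterByExpr (14298 of 32678 genes removed) and TMM scaling. The fit was also run on simulated counts with the same spread in every group. That run does not cover the unequal spread of replicates seen here. Intervals of log2 changes are 95%, and Wilson intervals cover counting error only. Alternatives were DESeq2 1.42.0, RLE scaling, no filter, only the groups compared, organelle genes left out, a replicate block, and each library left out.

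The members and lists were chosen with earlier results of these data known. Named are the 10 genes, the 3 genes of each other iron list with the smallest p at 1000 µM and any called at 100 µM, FIT, IRT1, FRO2 and FER1, the most abundant gene of each marker list, and the 5 genes most alike. Genes whose exons overlap a member are named as well, and so are FER3 and FER4 beside FER1. The table gives no coordinates; RefSeq's TAIR10.1 holds 31912 of its 32678 identifiers and gave the positions and sequences.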

Additional observations from a re-analysis of the deposited data

How the results depend on the processing

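At 100 µM, 610 genes were called, against 335 in DESeq2, 1091 with no filter and 1719 with only the groups compared, and 97 to 1725 with 1 library left out. At 1000 µM the 5442 calls became 3328 in DESeq2 and 3280 to 6639 with 1 library left out, and between the doses the 2932 became 1625 and 1082 to 4385. Of the 10 regulators 1 to 7, 6 to 7 and 1 to 4 were called in the 3 comparisons with 1 library left out. Of the other iron genes, 6 were called at 100 µM with only the groups compared and 1 to 6 with 1 library left out. At 1000 µM 11 were called in DESeq2 and 14 to 23 with 1 library left out, and between the doses 7 and 6 to 18. With all 6 libraries fitted, 3, 18 and 13 of the 47 other iron genes tested were called in the 3 comparisons. Same-numbered replicates did not deviate together (r = 0.0277, -0.0311 and -0.0662). A replicate block called 446, 4959 and 2508 genes, with 6, 6 and 2 of the regulators. OPT3 at 1000 µM (adjusted p = 0.0506), IMA2 between the doses (0.0547) and AT3G56360 at 1000 µM (0.0906) were not called with the block.

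With 1 library left out, signs turned only for changes that had not passed the test. At 100 µM the log2 change ranged from -0.31 to 0.59 for IMA3 (-0.30 without 100 µM replicate 1), -0.08 to 0.18 for PYE, -0.21 to 0.10 for FIT (0.08 without 100 µM replicate 2), -0.65 to 0.69 for IRT1 (-0.02 without control replicate 2), -1.12 to 0.24 for FRO2 (0.18 without control replicate 2) and -0.07 to 0.08 for AT3G56360 (-0.03 without 100 µM replicate 2, and -0.0005 with no filter). At 1000 µM it ranged from -0.60 to 0.44 for IMA3 (0.26 without 1000 µM replicate 1) and -0.01 to 0.14 for PYE. Between the doses it ranged from -0.16 to 0.27 for BHLH38 (-0.08 without 100 µM replicate 2), -0.66 to 0.21 for IMA3 (0.20 without 1000 µM replicate 1), -0.11 to 0.15 for PYE (-0.06 without 1000 µM replicate 2), -0.09 to 0.05 for BTS (0.04 without 100 µM replicate 1), -0.11 to 0.31 for OPT3, -0.48 to 0.16 for BHLH121 and -0.07 to 0.13 for BHLH115. The cause was not tested. IMA3 had 10 to 20 counts in a library.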
